A study of Homo sapiens with 14 samples.

Results

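The receptor gene *IL21R*, the other receptor genes of the common gamma cytokine family and the kinases, transcription factors and feedback inhibitor through which they signal were followed in a leukaemia cell line. The set held 10 genes of the 61541 in the deposited count table: *IL21R*, *IL7R*, *IL4R*, *IL9R*, *IL2RG*, *JAK1*, *JAK3*, *STAT5A*, *STAT5B* and *SOCS3*. They were found by matching their symbols to Ensembl identifiers. The set was put together knowing that *IL21R* was much higher with the KSR inhibitor and with the non-targeting guide than in DMSO, so values of the 10 genes in those 2 contrasts are a description: no p is given for them, and nothing is read from how many lie past a threshold. All 10 genes were abundant enough to be among the 18963 genes tested.

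All cells were Jurkat, a human leukaemia line (T-cell acute lymphoblastic leukaemia, TAL1-positive), so every value comes from 1 line. Polyadenylated RNA was sequenced in 14 libraries of 5 groups. Treatment with APS-2-79, a KSR inhibitor (KSRi, 3 libraries), had DMSO treatment as its control (3 libraries). Cells with *KSR2* guide 1 (3 libraries) or *KSR2* guide 2 (3 libraries) had cells with a non-targeting guide as theirs (NT, 2 libraries). The question was what interference with KSR2, a scaffold of the RAF, MEK and ERK kinases, does to gene expression. Sample titles name a CRISPR knockout, the study's design text names CRISPR interference, and the library names of NT name a hairpin control. The sources used here do not give the dose, the treatment time, the guide sequences or the time with the guides. Nothing says that libraries of a group came from separate cultures, so the p-values cover only their spread, which may be technical. NT and DMSO cells differed in more than 1 respect, and the NT titles name no DMSO treatment. A guide vector, its delivery, exposure to DMSO and the handling of the cells cannot be told apart in that contrast.

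Cytokines of this family, among them interleukins 2, 4, 7, 9, 15 and 21, signal through a private receptor chain paired with the common gamma chain, the product of *IL2RG*. The private chain is bound by JAK1 and the gamma chain by JAK3. The activated kinases phosphorylate STAT proteins, STAT5A and STAT5B prominently after interleukins 2, 7, 9 and 15, STAT6 after interleukin 4 and STAT3 after interleukin 21. SOCS proteins are induced by these pathways and dampen them. Interleukin 7 signalling sustains developing T cells, and activating changes in *IL7R*, *JAK1*, *JAK3* and *STAT5B* are known in T-cell acute lymphoblastic leukaemia.

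The 5 receptor chains share a signature outside the membrane, the WSXWS box, which the choice of the genes did not use. The box is common to class I cytokine receptors in general, and is shown here as a stretch that all 5 genes have. Each line gives 39 coding bases, 5′ to 3′, from the longest coding transcript of the gene in GENCODE 29 (GRCh38), with the 15 bases of the box in capitals.
IL21R: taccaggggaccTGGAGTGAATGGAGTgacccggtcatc
IL7R: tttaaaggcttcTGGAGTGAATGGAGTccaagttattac
IL4R: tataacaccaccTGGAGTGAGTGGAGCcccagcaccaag
IL9R: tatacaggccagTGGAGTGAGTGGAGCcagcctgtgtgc
IL2RG: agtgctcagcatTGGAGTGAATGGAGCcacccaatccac
Each coding sequence held the box 1 time. The capitals were the same in *IL21R* and *IL7R*, and the same in *IL4R* and *IL9R*.

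Library totals were 21710466 to 45897075 counts in KSRi, 33919545 to 38801454 with guide 1, 29979565 to 42717502 with guide 2, 25794010 to 34535929 in NT and 27099107 to 43027877 in DMSO. *KSR2* itself, the target of the guides, was at 0.541 ± 0.110 CPM (the count scaled to a common library size) with guide 1 and 0.766 ± 0.0492 CPM with guide 2 (SD, n = 3 each), against 29.5 ± 0.786 CPM in NT (n = 2). It was at 34.3 ± 1.20 CPM in KSRi and 37.0 ± 2.23 CPM in DMSO (SD, n = 3 each). All 10 T-lineage markers examined were among the genes tested, at a summed 1934 to 2766 CPM in every library. Of the markers of other blood cells, *CSF1R*, *NCR1*, *HBB* and *ALAS2* were at 0 in every library, and the 6 myeloid markers were each under 1 CPM. Of the 6 B-lineage markers, 4 were under 1 CPM everywhere. The 6 summed to 48.1 to 69.5 CPM in NT and 21.9 to 23.2 CPM in DMSO, nearly all of it *CD79A*. They summed to 23.2 to 25.1 CPM in KSRi, 44.3 to 60.3 CPM with guide 1 and 46.9 to 57.8 CPM with guide 2. The 5 natural killer markers summed to 6.51 to 8.33 CPM in KSRi, 5.98 to 6.52 CPM in NT and 3.73 to 4.40 CPM in DMSO. Their sums were 5.24 to 6.13 CPM with guide 1 and 5.45 to 6.19 CPM with guide 2. The 5 erythroid markers summed to 0.369 to 0.605 CPM in KSRi, 1.14 to 1.16 CPM in NT and 0.293 to 0.311 CPM in DMSO. With guide 1 they summed to 1.04 to 1.38 CPM and with guide 2 to 0.900 to 1.33 CPM, nearly all of it *KLF1*. The part of these differences in the results was not tested. Libraries within KSRi differed more from each other (chi-square per degree of freedom 15.5 to 44.4) than libraries within DMSO (5.29 to 7.03). This value was 6.83 to 12.5 with guide 1, 8.38 to 23.3 with guide 2, which overlapped KSRi, and 8.86 in NT. The mitochondrially encoded share of counts was 2.51%, 2.06% and 1.12% in KSRi replicates 1, 2 and 3.

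*IL21R* (ENSG00000103522, chromosome 16, 27402162 to 27452042, plus strand, GRCh38) encodes the private chain for interleukin 21. It was at 10.004, 16.7 and 19.8 CPM in the KSRi libraries, against 1.17, 0.827 and 0.932 CPM in the DMSO libraries. With guide 1 it was at 6.61, 6.18 and 5.63 CPM, with guide 2 at 6.001, 5.95 and 7.02 CPM, and in NT at 7.56 and 6.90 CPM. The gene was thus at 3 levels that did not overlap: KSRi on top, NT and the guides in the middle, and DMSO at the bottom. Within the middle, guide 2 overlapped both NT and guide 1, while every guide 1 library lay below both NT libraries. The DMSO values rest on 28, 25 and 36 counts, and the KSRi values on 298, 662 and 369 counts. The fitted log2 change was 3.99 for KSRi against DMSO (SE 0.23, 15.9-fold) and 2.90 for NT against DMSO (SE 0.26, 7.47-fold). Both contrasts share the DMSO libraries. In these bulk libraries, more cells that express a gene and more RNA per cell cannot be told apart.

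**Figure D1:**
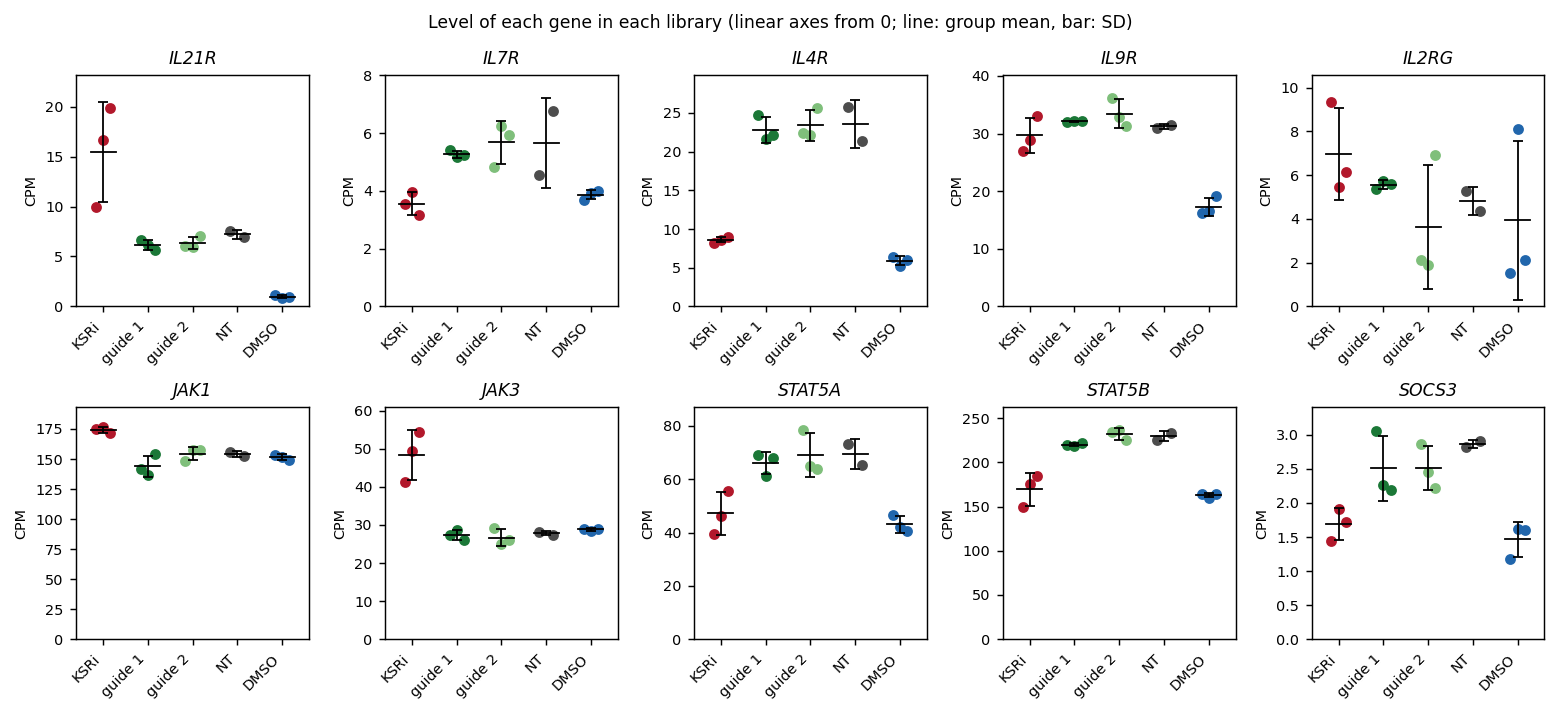
CPM (linear axis from 0) of each of the 10 genes in each library of KSRi, guide 1, guide 2, NT and DMSO. Points are libraries, lines group means and bars SDs (n = 3, and 2 for NT). *IL21R* and *JAK3* were highest in KSRi, while *IL4R*, *STAT5A* and *STAT5B* were highest in the groups with a guide, and *IL2RG* scattered widely within DMSO and within guide 2.

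*IL4R* (ENSG00000077238, chromosome 16, 27313668 to 27364778, plus strand) encodes the private chain for interleukin 4 and lies next to *IL21R*. It was at 8.26, 8.65 and 8.92 CPM in KSRi, against 6.41, 5.26 and 6.06 CPM in DMSO. It was at 24.7, 21.6 and 22.1 CPM with guide 1, at 22.4, 22.1 and 25.7 CPM with guide 2, and at 25.8 and 21.4 CPM in NT. The order of *IL4R* therefore differed from that of *IL21R*: NT and the guides stood above KSRi, and KSRi above DMSO, with no overlap at either step. The log2 change was 0.54 for KSRi against DMSO (SE 0.11, 1.46-fold) and 2.00 for NT against DMSO (SE 0.11, 3.99-fold).

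*IL9R* (ENSG00000124334, chromosome X, 155997581 to 156010817, plus strand) encodes the private chain for interleukin 9. It was at 27.1, 28.9 and 33.0 CPM in KSRi, against 16.3, 16.5 and 19.1 CPM in DMSO. It was at 32.0, 32.3 and 32.1 CPM with guide 1, at 36.2, 32.9 and 31.3 CPM with guide 2, and at 30.9 and 31.5 CPM in NT. DMSO was the low group here, below all others without overlap, and KSRi and NT overlapped. The log2 change was 0.77 for KSRi against DMSO (SE 0.09, 1.70-fold) and 0.85 for NT against DMSO (SE 0.10, 1.80-fold). Of the 50-base windows of its transcripts, 27.3% also occur in other genes, *IL9R* pseudogenes among them, so its counts may hold or lack reads of those copies. Chromosome Y copies of X genes were left out of that share, so it may be too low. The pseudogene *IL9RP3* had 25 to 97 counts per library, where *IL9R* had 389 to 1426.

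*IL7R* (ENSG00000168685, chromosome 5, 35852695 to 35879603, plus strand) encodes the private chain for interleukin 7. It was at 3.56, 3.96 and 3.17 CPM in KSRi, against 3.69, 3.94 and 3.99 CPM in DMSO, and these groups overlapped. It was at 5.40, 5.16 and 5.24 CPM with guide 1, at 4.84, 6.26 and 5.95 CPM with guide 2, and at 4.56 and 6.77 CPM in NT. The log2 change was −0.10 for KSRi against DMSO (SE 0.15, 95% interval −0.42 to 0.22) and 0.56 for NT against DMSO (SE 0.16, 1.48-fold). The value against DMSO depends on which NT library is used, being 0.80 without NT replicate 1 and 0.23 without NT replicate 2.

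*IL2RG* (ENSG00000147168, chromosome X, 71107404 to 71112108, minus strand), the gene of the shared gamma chain, was the member whose libraries agreed least. It was at 9.37, 5.44 and 6.13 CPM in KSRi, against 1.55, 8.14 and 2.12 CPM in DMSO. It was at 5.36, 5.75 and 5.60 CPM with guide 1, at 2.10, 1.88 and 6.91 CPM with guide 2, and at 5.28 and 4.36 CPM in NT. DMSO replicate 2 stood 5.25-fold above DMSO replicate 1, and guide 2 replicate 3 stood 3.68-fold above guide 2 replicate 2, whereas the guide 1 libraries lay within 1.07-fold. The log2 change was 0.82 for KSRi against DMSO (SE 0.48, 95% interval −0.20 to 1.84) and 0.28 for NT against DMSO (SE 0.55). Without DMSO replicate 2 these values were 1.89 and 1.34.

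The spread of *IL2RG* was looked at further after its values were seen. Its SD of log2 CPM between libraries of one group was 0.789. Of the 2411 tested genes with a mean CPM within 2-fold of its own, 1 (0.0415%) had a larger SD, and their median was 0.168. *IL21R* had an SD of 0.281, exceeded by 3.87% of the genes of like abundance, and *JAK1* one of 0.05002, exceeded by 93.4%. The neighbouring genes *FOXO4* and *MED12* on chromosome X had SDs of 0.123 and 0.0793, so the scatter was not shared by them. Of the 50-base windows of the *IL2RG* transcripts, 49% also occur in an overlapping gene, ENSG00000285171, which had 0 counts in every library. Each *IL2RG* value rests on 37 to 315 counts.

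**Figure D2:**
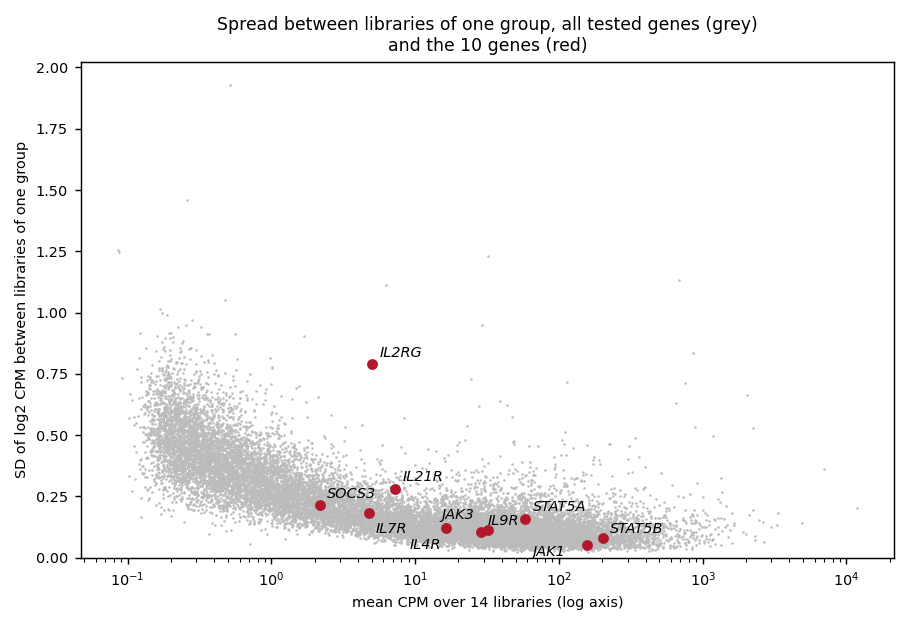
SD of log2 CPM between libraries of one group (vertical axis) against mean CPM over the 14 libraries (log axis), with tested genes in grey and the 10 genes in red. *IL2RG* stands at 0.789, far above the genes of like abundance, while *IL7R*, *IL4R*, *IL9R* and *JAK3* lie near the middle of theirs.

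*JAK3* (ENSG00000105639, chromosome 19, 17824780 to 17848071, minus strand), the kinase of the gamma chain, was at 41.4, 49.3 and 54.3 CPM in KSRi, against 29.02, 28.5 and 29.01 CPM in DMSO. It was at 27.5, 28.8 and 26.0 CPM with guide 1, at 29.1, 24.9 and 26.1 CPM with guide 2, and at 28.2 and 27.4 CPM in NT. KSRi stood above the other 4 groups without overlap. The log2 change was 0.74 for KSRi against DMSO (SE 0.09, 1.67-fold) and −0.05 for NT against DMSO (SE 0.10, and 0.16 with upper-quartile scaling).

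*JAK1* (ENSG00000162434, chromosome 1, 64833229 to 64966504, minus strand), the kinase of the private chains, was at 175, 176 and 171 CPM in KSRi, against 154, 152 and 149 CPM in DMSO. It was at 142, 137 and 154 CPM with guide 1, at 148, 157 and 158 CPM with guide 2, and at 156 and 152 CPM in NT. KSRi was again the high group, by a smaller step: the log2 change against DMSO was 0.20 (SE 0.06, 1.15-fold). For NT against DMSO it was 0.02 (SE 0.07), and 0.24 with upper-quartile scaling.

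*STAT5A* (ENSG00000126561, chromosome 17, 42287547 to 42311943, plus strand) and *STAT5B* (ENSG00000173757, chromosome 17, 42199168 to 42276707, minus strand) are adjacent genes of closely related transcription factors. *STAT5A* was at 39.6, 46.3 and 55.7 CPM in KSRi, against 46.6, 42.1 and 40.6 CPM in DMSO. It was at 69.2, 61.3 and 67.9 CPM with guide 1, at 78.6, 65.0 and 63.8 CPM with guide 2, and at 73.3 and 65.4 CPM in NT. *STAT5B* was at 149, 175 and 184 CPM in KSRi, against 164, 160 and 164 CPM in DMSO.
For both genes KSRi and DMSO overlapped, and NT and the guides stood above them without overlap. *STAT5B* was at 219, 219 and 222 CPM with guide 1, at 235, 236 and 225 CPM with guide 2, and at 225 and 233 CPM in NT. The log2 changes for NT against DMSO were 0.69 for *STAT5A* (SE 0.12, 1.61-fold) and 0.49 for *STAT5B* (SE 0.08, 1.41-fold). For KSRi against DMSO they were 0.13 (SE 0.11) and 0.06 (SE 0.07), with 95% intervals of −0.11 to 0.36 and −0.09 to 0.21. Of the 50-base windows of their transcripts, 8.61% in *STAT5A* and 9% in *STAT5B* occur in other genes, the other of the pair among them.

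*SOCS3* (ENSG00000184557, chromosome 17, 78356778 to 78360077, minus strand), an inhibitor of JAK kinases, was scarce. It was at 1.44, 1.92 and 1.72 CPM in KSRi, against 1.17, 1.62 and 1.60 CPM in DMSO. It was at 3.06, 2.26 and 2.20 CPM with guide 1, at 2.86, 2.45 and 2.22 CPM with guide 2, and at 2.82 and 2.91 CPM in NT. Like *STAT5A* and *STAT5B*, it overlapped between KSRi and DMSO and was higher in the groups with a guide. The log2 change was 0.20 for KSRi against DMSO (SE 0.20) and 0.94 for NT against DMSO (SE 0.20, 1.92-fold).

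KSRi replicate 1 was the lowest KSRi library for 7 of the 10 genes (*IL21R*, *IL4R*, *IL9R*, *JAK3*, *STAT5A*, *STAT5B* and *SOCS3*), and had the highest mitochondrially encoded share of the 3. Without it, the log2 change of *IL21R* against DMSO was 4.23, and leaving out any other KSRi or DMSO library gave no value below 3.80.

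In KSRi against DMSO, 5 of the 10 genes lay past the threshold used for all genes, an adjusted p of 0.05 in edgeR (*IL21R*, *IL4R*, *IL9R*, *JAK1* and *JAK3*), all of them higher, where 40.7% of all tested genes did in either direction and 22% were higher. The same 5 genes had libraries that did not overlap, against 46.9% of all genes. The median log2 change of the 10 genes was 0.37, and that of all genes 0.02. In NT against DMSO, 7 of the 10 lay past it (*IL21R*, *IL7R*, *IL4R*, *IL9R*, *STAT5A*, *STAT5B* and *SOCS3*), all higher, where 65.8% of all genes did and 34.6% were higher. The median was 0.63, and that of all genes 0.04. Upper-quartile scaling moved the median of all genes in this contrast to 0.26. Since the set was chosen with these contrasts known, the counts are a description and no test of the set.

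**Figure D3:**
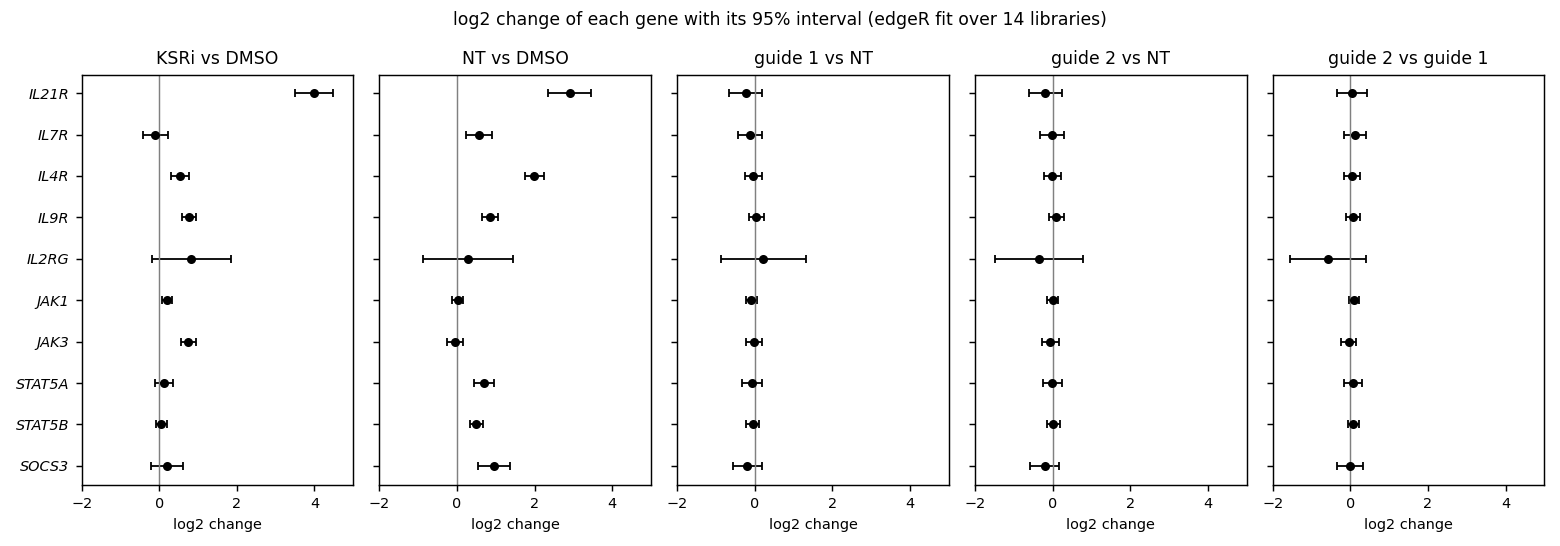
Log2 change (horizontal axis) of each of the 10 genes in 5 contrasts, with its 95% interval derived from the edgeR F test over 14 libraries. The changes against DMSO reach 3.99 for *IL21R*, whereas each interval of the guides against NT, and of guide 2 against guide 1, includes 0.

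The contrasts of the guides with NT had no part in choosing the genes and were tested. With both guides, 0 of the 10 genes passed in edgeR's test, where 0.0158% of all tested genes did, and 0 had an unadjusted p under 0.05, where 4.16% of all genes did. The counts were 0 of 10 for guide 1 (0.00527% of all genes), for guide 2 (0.0105%) and for guide 2 against guide 1 (0.00527%) as well. At an unadjusted p under 0.05 they were 0 of 10 too, where 4.64%, 3.6% and 3.24% of all genes passed. DESeq2 and limma-voom gave 0 in each of these contrasts too. Libraries of guide 1 and NT did not overlap for 4 of the 10 genes, as for 27.1% of all genes: *IL9R* and *IL2RG* were higher with guide 1, and *IL21R* and *STAT5B* lower. *IL21R* averaged 6.14 ± 0.494 CPM with guide 1 and 6.32 ± 0.607 CPM with guide 2 (SD, n = 3 each), against 7.23 ± 0.467 CPM in NT (n = 2). Its log2 change with both guides was −0.21 (SE 0.18, 95% interval −0.59 to 0.17, edgeR adjusted p 0.989). It was −0.23 with guide 1 (SE 0.20) and −0.19 with guide 2 (SE 0.20), and the guides differed by 0.05 (SE 0.18, 95% interval −0.33 to 0.43).

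The log2 changes of the 10 genes with both guides ranged from −0.21 for *IL21R* to 0.07 for *IL9R*. Intervals were narrow for the abundant genes, as for *JAK1* (−0.17 to 0.08), *STAT5B* (−0.17 to 0.13) and *JAK3* (−0.23 to 0.15). They were −0.22 to 0.17 for *IL4R* and −0.53 to 0.14 for *SOCS3*. For *IL2RG* the interval was −1.07 to 0.94, so it spans changes of nearly 2-fold upwards and over 2-fold downwards. The difference between guide 2 and guide 1 was −0.57 for *IL2RG* (SE 0.46, edgeR adjusted p 1.00). Whether the inhibitor and the guides differed in their effect on a gene of the set was not tested.

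Per kb of exon, which allows levels of different genes to be compared, *STAT5B* and *JAK1* were the highest of the 10 in every group. They stood at 26.3 and 27.6 CPM per kb in KSRi, and at 25.3 and 24.0 CPM per kb in DMSO. *IL9R* was the highest of the receptor genes, at 11.9 CPM per kb in KSRi, 12.5 in NT and 6.92 in DMSO. The limit from its shared windows, given above, holds for these levels too. *IL21R* was the lowest of the 10 in DMSO, at 0.179 CPM per kb. In KSRi its mean stood above those of *IL2RG*, *IL4R*, *SOCS3* and *IL7R*, at 2.84 ± 0.918 CPM per kb (SD, n = 3). That of *IL2RG* was 2.53 ± 0.759 CPM per kb, within this spread, so the order of this pair is not settled. *IL2RG*, the gene of the shared partner, was at 2.53 CPM per kb in KSRi, 1.75 in NT and 1.43 in DMSO. Since 49% of its 50-base windows also occur in an overlapping gene, its counts may lack reads and these levels may be too low. *IL7R* was at 0.588 CPM per kb in KSRi, 0.935 in NT and 0.638 in DMSO.

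The genes around *IL21R* were examined to see how far the difference extended along chromosome 16. Of the genes whose span lies at least partly within 250 kb, 9 were tested, *IL21R* and *IL4R* among them. With the inhibitor, 1 of the other 7 passed, *KATNIP*, with a log2 change of 0.22 (SE 0.07, edgeR adjusted p 0.0176), where 40.7% of all tested genes did. The adjacent *GTF3C1*, a subunit of an RNA polymerase III factor, had a log2 change of 0.15 (edgeR adjusted p 0.113). In NT against DMSO, where 65.8% of all tested genes changed, *NSMCE1-DT* rose by 1.30 (edgeR adjusted p 0.000717), while *GTF3C1* fell by 0.81 (adjusted p 2.55e-07), *KDM8* fell by 0.42 (adjusted p 0.00197) and *KATNIP* fell by 0.19 (adjusted p 0.0361). None of the 9 passed with the guides against NT.

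The antisense gene *IL21R-AS1* (chromosome 16, 27447669 to 27453393, minus strand) overlaps the 3′ part of *IL21R*, and 22.3% of the 50-base windows of *IL21R* transcripts occur in other genes, this one among them. It had 5, 5 and 4 counts in KSRi, against 4, 4 and 7 counts in DMSO. In KSRi that was 0.755% to 1.68% of the *IL21R* count, and in DMSO 14.3% to 19.4%. Its own log2 change with the inhibitor was −0.02 (SE 0.41), and in NT, with 11 and 15 counts, it rose by 1.28 against DMSO (SE 0.36, edgeR adjusted p 0.00835). The sources used here do not say whether counting used the strand, so reads of the overlapping part cannot be assigned with certainty.

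The promoter windows of the neighbours *IL21R* and *IL4R* are shown because these receptor genes, 1 beside the other, took different orders over the groups. Each runs from 250 bases before to 50 after the start in RefSeq (GRCh38.p14, plus strand), at chr16:27427021-27427320 for *IL21R* and chr16:27313724-27314023 for *IL4R*. The *IL21R* window lies inside the span that GENCODE gives the gene, which begins at 27402162. The bases around that earlier start are not shown and were not searched.
IL21R: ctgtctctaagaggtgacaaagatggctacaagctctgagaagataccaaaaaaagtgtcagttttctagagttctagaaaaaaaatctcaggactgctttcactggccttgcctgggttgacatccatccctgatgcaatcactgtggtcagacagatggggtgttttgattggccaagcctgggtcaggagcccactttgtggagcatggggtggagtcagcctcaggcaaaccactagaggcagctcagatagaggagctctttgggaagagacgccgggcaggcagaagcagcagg
IL4R: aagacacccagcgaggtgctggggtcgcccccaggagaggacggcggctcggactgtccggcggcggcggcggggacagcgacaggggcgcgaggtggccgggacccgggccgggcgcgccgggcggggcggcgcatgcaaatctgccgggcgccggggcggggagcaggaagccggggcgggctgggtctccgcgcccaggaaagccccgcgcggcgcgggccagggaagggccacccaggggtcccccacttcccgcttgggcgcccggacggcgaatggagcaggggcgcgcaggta
G and C made up 51% of the *IL21R* window and 79.3% of the *IL4R* window. The STAT5-type motif TTCNNNGAA and the STAT6-type motif TTCNNNNGAA, each the same on both strands, were in neither window. Over 35116 RefSeq windows of this kind, 7.66% held the first and 6.44% the second. For *IL21R* the absence of both motifs holds for the RefSeq window only, and not for the earlier GENCODE start. Some of the 10 genes, *JAK1*, *STAT5A* and *SOCS3*, had more than 1 window. Among all windows of the 10 genes there was 1 match, of the second motif, in a *STAT5A* window at chr17:42287189-42287488.

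By Pearson's r of log2 CPM over the 14 libraries, the genes most like *IL21R* among 14869 ranked genes were *ZNF710-AS1* (0.994), *DNAJB5* (0.985), *PXN* (0.984), *ABHD4* (0.983) and *MFGE8* (0.982). *PXN*, the gene of the focal adhesion protein paxillin, was at 57.5 CPM in KSRi, 42.8 and 40.2 CPM with guides 1 and 2, 47.1 CPM in NT and 18.0 CPM in DMSO. Of the set, *IL9R* was nearest (0.844), followed by *JAK3* (0.525) and *IL4R* (0.471), and *IL7R* was farthest (0.105). Among the ranked genes these 4 stood at places 529, 2838, 3341 and 6619, so many genes outside the set were nearer. Among the other members, *STAT5A* and *STAT5B* had an r of 0.956, and *IL4R* had 0.945 with *STAT5B* and 0.924 with *STAT5A*. These values describe points that share groups and libraries, and carry no test.

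A list of 62 other genes of the pathway, chosen by role, held 55 that were tested. It was drawn up with earlier results of these data known, so its counts against DMSO are no independent test of the pathway. *IL7*, *IL9* and *IL21*, ligands of the receptors above, and *IL13RA2* were at 0 in every library, and *IL4* was also too low to be tested. With the inhibitor, 26 of the 55 changed in edgeR's test, 17 higher and 9 lower, where 40.7% of all tested genes changed, 22% higher and 18.7% lower. The median log2 change of the 55 was 0.15, against 0.02 for all genes. Both guides against NT gave 0 of 55 in edgeR's test, where 0.0158% of all genes passed, and 0 with DESeq2 and with limma-voom. At an unadjusted p under 0.05 there were 6 of 55, where 4.16% of all genes passed.

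Among other STAT genes, *STAT4*, *STAT2*, *STAT6* and *STAT3* rose with the inhibitor. *STAT4*, which serves interleukin 12, was at 9.33, 10.3 and 10.6 CPM in KSRi, against 4.82, 5.13 and 5.25 CPM in DMSO (log2 change 0.98, SE 0.10, edgeR adjusted p 1.14e-06). *STAT2*, of the interferon pathway, averaged 56.7 CPM in KSRi and 34.9 CPM in DMSO (log2 change 0.70, SE 0.07, adjusted p 5.53e-07). *STAT6*, which serves interleukin 4, averaged 222 CPM in KSRi and 150 CPM in DMSO (log2 change 0.57, SE 0.07). *STAT3*, which serves interleukin 21, was at 210, 233 and 283 CPM in KSRi, against 191, 178 and 195 CPM in DMSO (log2 change 0.36, SE 0.09, edgeR adjusted p 0.00302).

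Of the 2 other kinases, *TYK2* rose, at 207, 235 and 274 CPM in KSRi, against 157, 157 and 163 CPM in DMSO (log2 change 0.58, SE 0.08, edgeR adjusted p 4.33e-05). *JAK2* did not pass, with a log2 change of 0.13 (SE 0.08). None of the 4 other receptor genes passed, where 40.7% of all tested genes did. The receptor gene *IL2RA*, the alpha chain for interleukin 2, averaged 0.276 CPM in KSRi and 0.0893 CPM in DMSO (log2 change 1.44, SE 0.58, edgeR adjusted p 0.0575), from 5, 7 and 9 counts in KSRi and 2, 4 and 2 counts in DMSO. Of 4 tested ligands, *TSLP* rose by 0.50 (SE 0.14, edgeR adjusted p 0.00702).

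Of 18 genes that the list places among the inhibitors, which may have other roles too, 4 rose and 5 fell with the inhibitor compound. Of all tested genes, 22% rose and 18.7% fell in this contrast. *PTPN2*, a phosphatase of JAK1 and JAK3, was at 103, 97.9 and 89.9 CPM in KSRi, against 149, 154 and 149 CPM in DMSO, and fell by 0.64 on the log2 scale (SE 0.07, edgeR adjusted p 2.05e-06). *PTPN11*, the gene of the phosphatase SHP-2, fell by 0.25 (SE 0.07) and *SOCS7* rose by 0.38 (SE 0.08). *CISH*, a feedback gene induced by STAT5, had a log2 change of −0.27 (edgeR adjusted p 0.0907).
Among 7 adaptors, 2 rose, where 22% of all tested genes did: *GAB2* by 0.75 (SE 0.11) and *SHC1* by 0.25 (SE 0.09). Among 15 known targets of the pathway, 5 rose and 4 fell, where 22% of all tested genes rose and 18.7% fell. *BCL6*, a transcriptional repressor, rose by 0.72 (SE 0.12) and *PIM2*, a survival kinase, by 0.52 (SE 0.11). *MYC* was at 424, 428 and 369 CPM in KSRi, against 586, 551 and 567 CPM in DMSO, and fell by 0.48 (SE 0.07, edgeR adjusted p 2.90e-05).

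**Figure D4:**
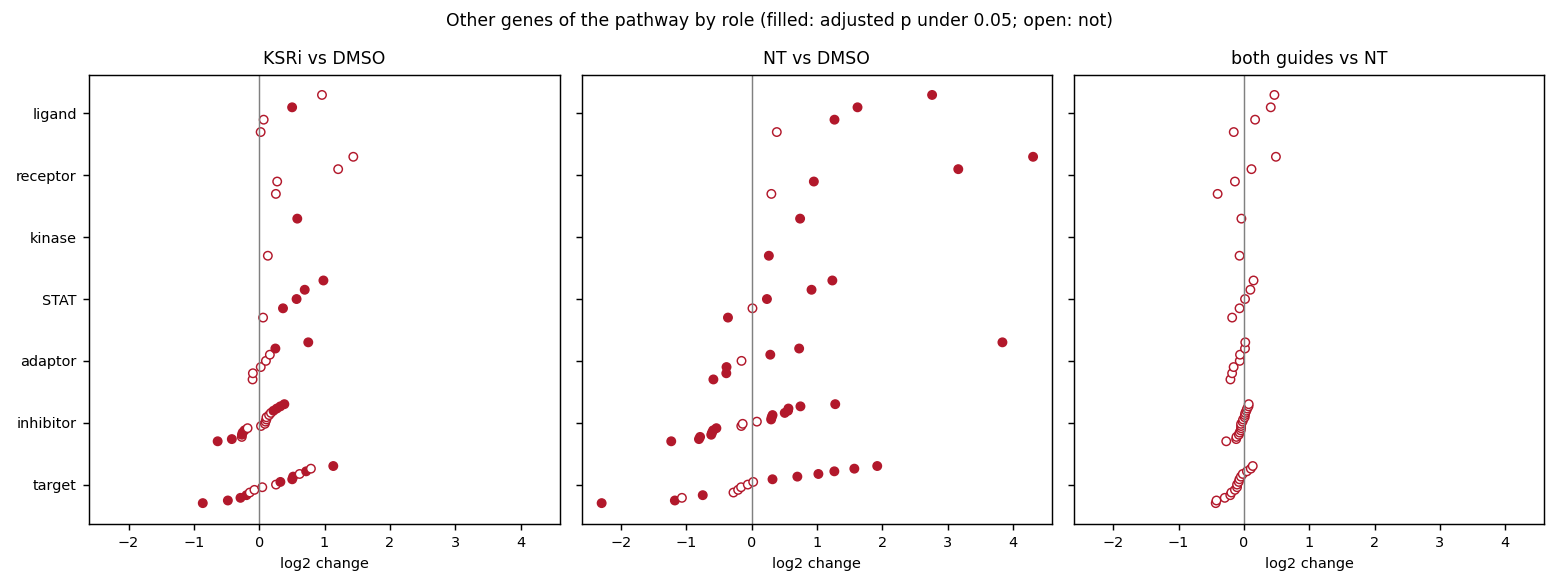
Log2 change (horizontal axis) of the 55 tested other genes of the pathway, by role, for KSRi against DMSO, NT against DMSO and both guides against NT. Filled points have an edgeR adjusted p under 0.05 and open points do not; 26, 42 and 0 are filled.

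In NT against DMSO, 42 of the 55 changed, 28 higher and 14 lower, where 65.8% of all tested genes changed, 34.6% higher and 31.2% lower. *GAB2*, an adaptor between cytokine receptors and the phosphatase SHP-2, was at 81.8 and 75.1 CPM in NT, against 5.53, 5.32 and 5.56 CPM in DMSO (log2 change 3.84, SE 0.11, edgeR adjusted p 1.44e-13). It was at 72.6 to 85.2 CPM with guide 1 and 74.4 to 91.0 CPM with guide 2. *IL2RA* averaged 1.79 CPM in NT and 0.0893 CPM in DMSO (log2 change 4.31, SE 0.40, adjusted p 5.80e-08), from 53 and 63 counts in NT and the few DMSO counts given above. *MYC* was at 115 and 116 CPM in NT, against 586, 551 and 567 CPM in DMSO, and fell by 2.29 (SE 0.08, adjusted p 1.27e-12).
The direction of *STAT6* was not the same in both contrasts, which share the DMSO libraries: it fell by 0.36 in NT against DMSO (SE 0.08, edgeR adjusted p 0.000723) and rose by 0.57 with the inhibitor. *CISH* fell by 1.23 in NT (SE 0.15, adjusted p 1.52e-06), while *SOCS1* rose by 0.75 (SE 0.20, adjusted p 0.00291).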

How the data were processed

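The authors deposited raw counts for 14 libraries, 1 row per Ensembl identifier. The tools and build, per the submitters' processing notes, were STAR 2.7.11b and DESeq2 1.42.1 with GRCh38. The sources used here do not give the counting program, strand setting or annotation release, which matters for overlapping genes and near-identical copies. Tests used edgeR 4.0.16 under R 4.3.3 (TMM factors, filterByExpr over 5 groups, 1 mean per group over all 14 libraries, quasi-likelihood F test, Benjamini-Hochberg adjustment over 18963 genes, threshold 0.05). The common biological coefficient of variation was 8.60%. Each SE was derived from that test, as the absolute log2 change over the square root of F. The 95% intervals add a t quantile times this SE on either side. CPM use TMM-scaled library sizes. Positions and exon lengths come from GENCODE 29 and promoters from RefSeq. The procedure was tested on simulated data. The members and lists were chosen with earlier results of these data known. Named genes are the 10 members, up to 3 other pathway genes per role with the lowest p among those past the threshold with the inhibitor, the 5 genes most like *IL21R* (at least 1 CPM in the highest group), tested genes at least partly within 250 kb of it, *IL21R-AS1* and *KSR2*; *JAK2*, *STAT3*, *IL2RA*, *CISH*, *SOCS1*, *FOXO4*, *MED12*, *IL9RP3* and the genes named for NT against DMSO were added after their values were seen. Alternatives were RLE and upper-quartile scaling, no low-count filter, DESeq2 1.42.0, limma-voom (limma 3.58.1), only the groups compared, a replicate block, a threshold of 0.01 and each compared library left out. All replicate pairs differed by more than sampling noise, so each library was counted separately. Some genes of the pathway list are not reported here by name.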

Additional observations from a re-analysis of the deposited data

How the results depend on the processing

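Of the counts that answer a comparison, 2 moved by over 1.5 times under an alternative that was run, and the log2 change of *IL21R* with the inhibitor was positive in all of them. At an adjusted p under 0.01, 14 of the other pathway genes passed with the inhibitor, in place of 26. With no low-count filter, 1 of the 10 genes (*IL2RG*, log2 change −0.56, edgeR adjusted p 0.0485) passed in guide 2 against guide 1, in place of 0; over all alternatives that change ranged from −1.48 to −0.26. With each compared library left out in turn, the log2 change of *IL21R* with the inhibitor ranged from 3.80 to 4.23, the members past the threshold from 4 to 6 with the inhibitor and from 6 to 8 in NT against DMSO, and the other pathway genes from 18 to 29 and from 37 to 40, with 0 throughout for the guides. Members against DMSO are a description here too. *JAK1* was no longer past the threshold with the inhibitor without DMSO replicate 3, at 0.01 or with no low-count filter. *STAT5B* was past it without KSRi replicate 1, with a log2 change of 0.14, and *IL2RG* in both contrasts without DMSO replicate 2 (log2 changes 1.89 and 1.34, in place of 0.82 and 0.28) and, with the inhibitor, with no low-count filter. *IL7R* was no longer past it in NT against DMSO without NT replicate 2. The causes were not tested. Upper-quartile scaling raised all values of NT against DMSO, and *JAK1* was then past the threshold. Same-numbered libraries were not shown to be paired (correlations of deviations −0.096 to 0.111). With a replicate block, 5 members lay past the threshold with the inhibitor, 7 in NT against DMSO and 0 with the guides, the other pathway genes numbered 22, 42 and 0, and *IL21R* had a log2 change of 3.997. Low counts limit *IL2RA* and *IL21R* in DMSO, and *SOCS3* and *IL21R-AS1*.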
